A study of Mus musculus with 10 samples.

Results

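The difference between Rybp-null and wild type cultures at day 8 of cardiac differentiation was measured in 4 of the 10 RNA sequencing libraries of the study, 2 from each genotype. The libraries were taken by their labels: null replicates 1 and 2, and wild type replicates 1 and 2. The Rybp-null cultures carry the label Rybp null mutant and the others the label wild type; the background of every library is given as 129x1 x 129S1. Both genotypes were mouse embryonic stem (ES) cells turned into embryoid bodies in hanging drops, and no drug or further allele is named in the labels. Whether either genotype is 1 clone, how the null allele was made, and whether replicates came from separate cultures is not given there. The p-values below therefore measure only the spread between libraries of the same genotype and day, which may be technical. All 10 libraries were in the fit, so that spread came from the replicates of day 14 as well as those of day 8. Every gene of the table was examined, and the account goes past the largest changes to the small and the absent ones.

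RYBP is a zinc finger protein that joins the RING1 ubiquitin ligases in variant Polycomb repressive complex 1 (PRC1), which places ubiquitin on histone H2A and keeps developmental and germline genes silent. In ES cells a variant that also holds the DNA-binding proteins MGA, MAX and E2F6 sits at the promoters of many germline genes. In a hanging drop, ES cells form embryoid bodies whose mesoderm gives rise to beating cardiomyocytes, smooth muscle, vessels and primitive blood, beside endoderm and other tissues.

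Germline genes were among the largest rises in null cultures, and the starts of 4 of them are shown because their promoters hold the letters that MAX and MGA partners are known to read (CACGTG, an E-box) or the E2F type sequence TTCCCGCC. Each runs 5′ to 3′ from 250 bases before to 50 bases after the transcription start, in the RefSeq promoter table of GRCm38.p6, and capitals mark these motifs on either strand. Ddx4 encodes the germ cell RNA helicase Vasa (chr13:112652261-112652560, minus strand), Mael the piRNA pathway protein Maelstrom (chr1:166238695-166238994, minus strand), Sycp3 an axial element protein of meiotic chromosomes (chr10:88459337-88459636, plus strand), and 4930447C04Rik, also known as Six6os1, a part of the synaptonemal complex (chr12:72917716-72918015, minus strand).
Ddx4: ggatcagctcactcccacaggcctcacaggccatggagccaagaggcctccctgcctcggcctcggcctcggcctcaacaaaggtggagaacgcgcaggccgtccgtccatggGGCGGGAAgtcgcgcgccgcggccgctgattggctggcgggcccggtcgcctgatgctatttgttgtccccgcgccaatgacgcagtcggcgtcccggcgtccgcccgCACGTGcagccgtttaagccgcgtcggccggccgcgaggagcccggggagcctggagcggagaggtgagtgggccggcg
Mael: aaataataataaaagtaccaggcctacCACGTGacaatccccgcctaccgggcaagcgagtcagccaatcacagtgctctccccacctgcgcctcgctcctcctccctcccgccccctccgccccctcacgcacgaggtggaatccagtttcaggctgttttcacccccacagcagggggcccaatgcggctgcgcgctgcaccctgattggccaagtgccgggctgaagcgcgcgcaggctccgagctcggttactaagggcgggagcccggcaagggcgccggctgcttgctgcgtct
Sycp3: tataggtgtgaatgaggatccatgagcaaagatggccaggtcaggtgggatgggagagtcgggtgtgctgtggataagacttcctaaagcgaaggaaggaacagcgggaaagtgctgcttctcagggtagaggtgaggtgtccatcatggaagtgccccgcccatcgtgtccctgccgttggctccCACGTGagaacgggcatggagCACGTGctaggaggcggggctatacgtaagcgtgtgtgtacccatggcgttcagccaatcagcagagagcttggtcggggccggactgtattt
4930447C04Rik: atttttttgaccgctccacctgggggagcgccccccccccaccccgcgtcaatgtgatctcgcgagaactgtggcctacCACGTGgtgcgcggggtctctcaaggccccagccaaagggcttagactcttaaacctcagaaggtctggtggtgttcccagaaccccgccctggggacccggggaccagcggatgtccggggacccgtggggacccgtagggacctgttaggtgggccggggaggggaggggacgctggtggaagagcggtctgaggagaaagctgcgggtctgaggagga

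The E-box starts 29 bases before the transcription start in Ddx4, 223 bases before it in Mael, 171 bases before it in 4930447C04Rik, and 64 and 43 bases before it in Sycp3. Ddx4 also holds the E2F type sequence, as its reverse complement, starting 137 bases before the start. Among all 32851 promoters listed there, 7.15% hold CACGTG and 2.19% hold TTCCCGCC on either strand. Of the 80 genes that rose (0.506% of those tested) 55 matched a promoter, and 10 of these (18.2%) hold CACGTG in at least 1 promoter, against 11.6% of the 10415 tested genes that matched. Among the 120 that fell (0.759%) 85 matched, and 8 of them (9.41%) hold CACGTG. TTCCCGCC was in the promoters of 4 of the 55 higher genes (Cltb, Ddx4, Morc4 and Nop58) and of 1 of the 85 lower genes, the recombination site methyltransferase Prdm9, against 4.62% of the tested genes. The TATA sequence TATAAA was in 4 of the 55 higher genes and 14 of the 85 lower genes, among them the muscle genes Actc1, Myh6, Myl2 and Smyd1. It was in 9.08% of the tested genes. CCAAT was in 27 of the 55 higher genes, 45 of the 85 lower genes and 42.9% of the tested genes. None of the motifs contains another, and a match of letters is a description and not a site.

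Rybp checked the labels. It had 0.484 and 0.288 CPM in null libraries, against 38.3 and 43.1 CPM in wild type libraries (ratio of wild type over null 104, 95% counting interval 35.1 to 506, adjusted p = 1.93e-05), so the null libraries were all but empty of it and the genotypes did not overlap. Its processed copy Rybp-ps, whose reads cannot be told from those of Rybp, followed it (0 and 0.288 CPM in null libraries, against 24.6 and 21.4 CPM in wild type libraries; ratio of wild type over null 174, 95% counting interval 30.8 to 6930, adjusted p = 0.000496). Yaf2, the paralog that can take the place of RYBP in PRC1, had 13.1 and 17 CPM in null libraries, against 15.7 and 22.8 CPM in wild type libraries, and these libraries overlapped (log2 fold change −0.36, SE 0.32, adjusted p = 0.681). Across 39 tested genes of the PRC1 complexes the median log2 fold change was 0.21, and Bcor, the corepressor of the PCGF1 variant, was the only one that rose, with 115 and 138 CPM in null libraries, against 55.3 and 62 CPM in wild type libraries (log2 fold change 1.11, SE 0.23, adjusted p = 0.0379). The genes of PRC2, DNA methylation, trithorax and the chromatin remodelers had no called member. Nearest to the threshold in them were Aebp2, a PRC2 accessory factor (0.56, adjusted p = 0.114), the demethylation enzyme Tet3 (−1.6, adjusted p = 0.176), the lysine demethylase Kdm5b (0.68, adjusted p = 0.11) and the remodeler subunit Pbrm1 (0.68, adjusted p = 0.0515). Bcor was not called without wild type replicate 1 (1.03), wild type replicate 2 (1.19) or without null replicate 2 (0.97). Bcor was not called with only the day 8 libraries in the fit, nor with chromosomes 1, 6, 8, 14 and Y left out.

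The 4 libraries held 4164476 and 3366320 counts in null, against 3028153 and 3492732 counts in wild type, which is shallow, and levels are given in CPM, counts scaled to a common library size. The null replicates stood further apart than the wild type ones. Of 6521 genes with a mean of 20 CPM or more, 359 (5.51%) differed at least 2-fold between the null replicates, against 39 (0.598%) between the wild type replicates. Marker sums show where. Primitive erythroid markers summed to 2970 and 916 CPM in null, against 881 and 922 CPM in wild type, so null replicate 1 alone was high. Epithelial markers summed to 123 and 488 CPM in null, against 128 and 212 CPM in wild type, so null replicate 2 alone was high. Visceral endoderm markers summed to 7.5 and 44.3 CPM in null, against 59.4 and 88.5 CPM in wild type, and epicardial markers to 117 and 32.8 CPM in null, against 162 and 140 CPM in wild type. The part of these differences in the results below was not tested.

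Sarcomere genes were plentiful in the wild type libraries, which are labelled cardiac cultures, and scarce in the null libraries of the same label. The 8 cardiomyocyte markers summed to 121 and 68.5 CPM in null, against 2590 and 2130 CPM in wild type, with Myl7 and Nkx2-5 at 0 in null, and Nkx2-5 held a single count in wild type as well. Smooth muscle markers summed to 695 and 351 CPM in null, against 1020 and 927 CPM in wild type, endothelial markers to 309 and 256 CPM in null, against 427 and 407 CPM in wild type, and parietal endoderm markers to 509 and 340 CPM in null, against 370 and 357 CPM in wild type. ES cell markers summed to 53 and 108 CPM in null, against 18.8 and 30.2 CPM in wild type, far below the 9710 CPM of the null and 5440 CPM of the wild type ES cell library of day 0. Neural markers were low throughout, at 14.3 and 16.1 CPM in null, against 18.5 and 22.0 CPM in wild type. In bulk RNA, fewer cells of a type and less RNA per cell cannot be told apart.

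Across the transcriptome, 15819 of 36191 gene IDs had enough counts to test, and 10971 had no count in any of the 4 libraries. In edgeR's quasi-likelihood test with Benjamini-Hochberg adjustment, 80 genes (0.506%) were higher and 120 (0.759%) lower in null cultures, 200 in all (1.26%). At an unadjusted p under 0.05 there were 2122 genes (13.4%). Falls were larger than rises. The 120 lower genes had a median absolute log2 fold change of 2.73, and 74 of them changed by at least 4-fold, 34 by 2-fold to under 4-fold and 12 by less. The 80 higher genes had a median of 1.33, with 27 at 4-fold or more, 32 in between and 21 under 2-fold. Most genes moved little: 69.1% of those tested lay within 1.5-fold, and the median over all of them was 0.01.

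Calls grew more frequent with abundance. Of the 5005 genes with a mean under 5 CPM 0.46% were called, of 4293 genes at 5 to 20 CPM 1.4%, of 4480 genes at 20 to 100 CPM 1.54%, and of 2041 genes above 100 CPM 2.35%. The median SE of a log2 fold change fell over the same classes from 0.81 through 0.41 and 0.26 to 0.18. Called genes had a median absolute log2 fold change of 4.3 in the lowest class and 0.96 in the highest. Small changes of rare transcripts were not detectable at this depth. Above 100 CPM 29 genes were higher and 19 lower, whereas under 100 CPM 51 were higher and 101 lower.

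**Figure D1:**
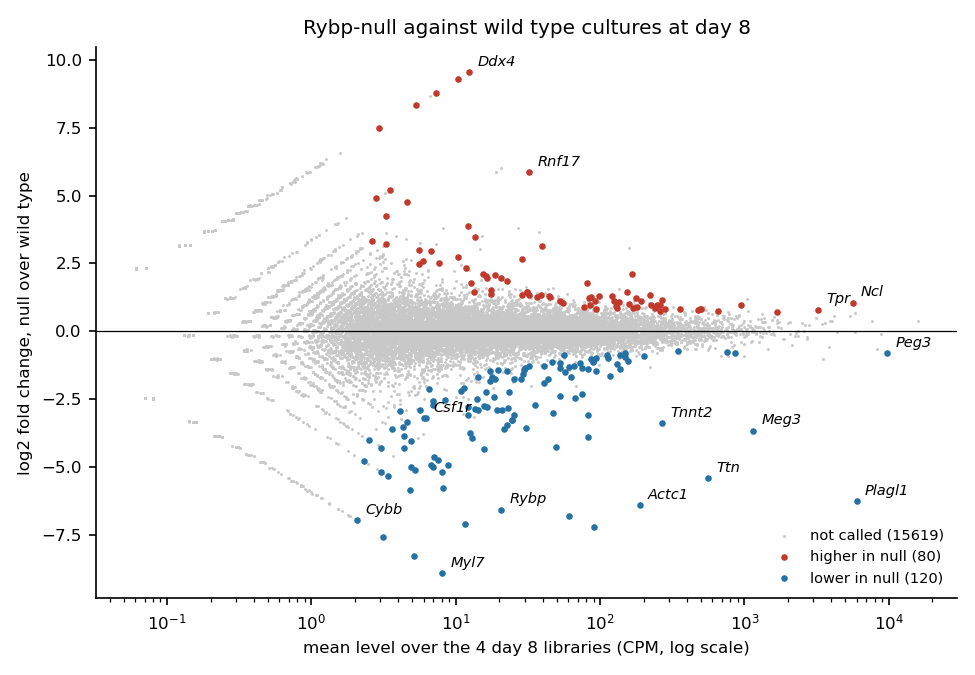
Log2 fold change of null over wild type cultures at day 8 (vertical axis) against the mean level over the 4 libraries in CPM (horizontal axis, log scale), with 1 point for each of the 15819 tested genes. The 80 higher genes (red) and 120 lower genes (blue) narrow toward 0 as the level grows, and Plagl1, Meg3 and Ttn stand apart at high levels.

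Leaving out a wild type library lost most calls, and leaving out a null library kept most. Without wild type replicate 1, 28 of the 200 still passed, without wild type replicate 2, 68, without null replicate 1, 137, and without null replicate 2, 135. No called gene changed direction without any 1 of them. A core of 26 genes passed without each in turn. The 3 higher ones are Rnf17, Mael and 4930447C04Rik, and the 23 lower ones include Plagl1, Ttn, Meg3, Smyd1, Myh7, Slc8a1, Myl4, C3ar1, Rbm24, Cd180, Nebl, Ryr2, Pdzrn3, Myl7, Hdac9 and Mybpc3. A call named below that is not among the 26 was lost without at least 1 library, and the paragraphs say which. They also give the calls lost under other fits, apart from a fit with a replicate block, a term for replicate number, over days 8 and 14. That fit lost 39 of the higher and 29 of the lower calls, which are not listed by name. With only the day 8 libraries in the fit, 97 of the 200 were lost.

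Most rises lay on 4 chromosomes whose genes were higher as a whole. Tested genes of chromosome 1 had a median log2 fold change of 0.42, those of chromosome 14 of 0.36, of chromosome 6 of 0.22 and of chromosome 8 of 0.15, while the median of every other autosome lay between −0.10 and 0.01. On chromosome 1 the lower and upper quartiles were 0.07 and 0.77, so over 3 in 4 of its genes were above 0. The shift appeared in each pairing of a null with a wild type library: for chromosome 1 between 0.38 and 0.45, for chromosome 14 between 0.27 and 0.45, for chromosome 6 between 0.14 and 0.27, and for chromosome 8 between 0.10 and 0.15. In the ES cell libraries of day 0, 1 per genotype, the medians were 0.53, 0.40, 0.29 and 0.28 for chromosomes 1, 14, 6 and 8, and at day 14 they were 0.41, 0.37, 0.19 and 0.10.

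These 4 chromosomes carry 18.5% of the tested genes. They carry 49 of the 80 higher calls, 32 of them on chromosome 1, and 18 of the 120 lower calls. The higher calls on them were small, with a median log2 fold change of 1.22 and 18 of 49 under 2-fold, whereas the higher calls of other chromosomes had a median of 2.35. Where a gene below lies on chromosome 1, 6, 8 or 14, its rise stands on top of a rise of its whole chromosome, and its fall goes against it. Whether these shifts are the copy number of chromosomes was not tested. Scaling the libraries on the other autosomes moved the median of all genes by 0.05 and gave 101 higher and 102 lower genes.

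**Figure D2:**
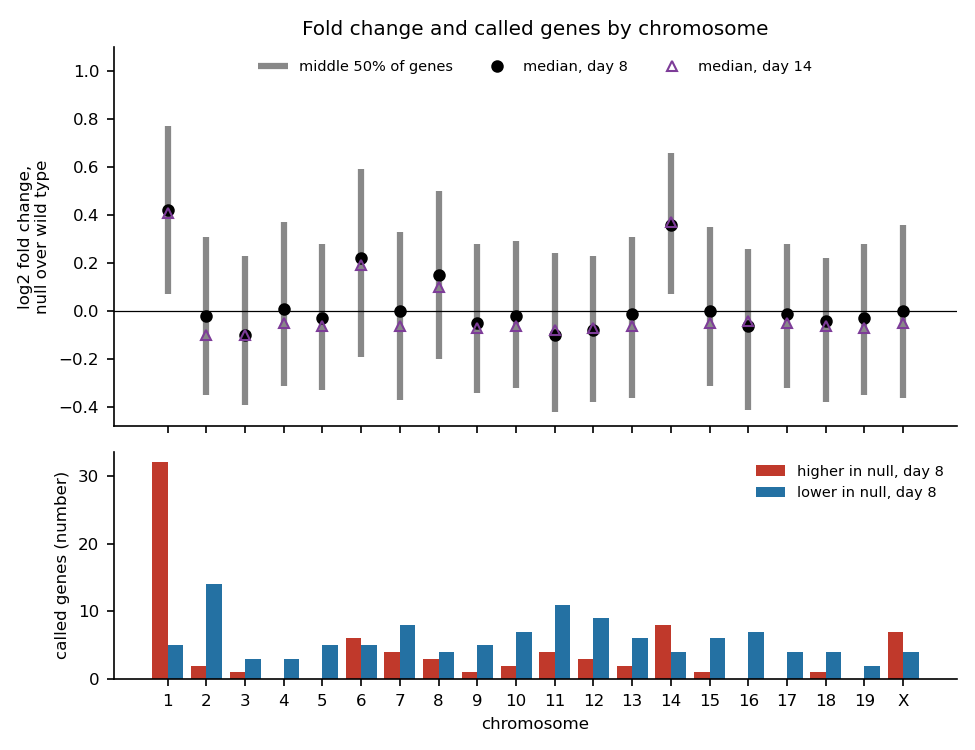
Upper panel: log2 fold change of null over wild type by chromosome, as the median at day 8 (black points) with the interquartile range (grey bars) and the median at day 14 (open triangles). Lower panel: numbers of higher (red) and lower (blue) genes at day 8. Chromosomes 1, 6, 8 and 14 lie above 0 at both days, and chromosome 1 holds 32 of the 80 higher genes.

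Germline genes that were near 0 in wild type rose in null cultures. Over all tested genes 0.506% rose and 0.759% fell. Among the 16 tested genes of the nuage and piRNA pathway, the granules that guard the germline against transposons, 3 rose and 0 fell, and the list had a median log2 fold change of 2.52, or 0.98 when genes without a count in 1 genotype are put at their bound, against 0.01 over all genes. Rnf17, a tudor domain protein of that pathway, had 51 and 76.3 CPM in null libraries, against 1.6 and 0.564 CPM in wild type libraries (log2 fold change 5.87, SE 0.42, adjusted p = 1.93e-05). Mael had 17.6 and 23.9 CPM in null libraries, against 0 and 0 CPM in wild type libraries (at least 45.6-fold higher in null, adjusted p = 0.000736). Ddx4 had 18.6 and 31.1 CPM in null libraries, against 0 and 0 CPM in wild type libraries (at least 54.1-fold higher in null, adjusted p = 0.00624). Neither wild type library held a count of Mael or Ddx4, and each null library held many. Dazl, a germ cell RNA-binding protein and a marker of the lineage, was at 0 and 0.576 CPM in null, against 0.639 and 0.564 CPM in wild type, too few counts to compare. Ddx4 was not called without wild type replicate 1.

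Meiotic genes rose as well, 4 of 19 tested, beside 0.506% of all tested genes. None was lower, and the list median was 2.11, or 1.63 with bounds. Sycp3 had 11.6 and 33.7 CPM in null libraries, against 1.6 and 1.41 CPM in wild type libraries, about 3 times as high in null replicate 2 as in null replicate 1 (log2 fold change 3.88, SE 0.63, adjusted p = 0.012). Its partner in the axial element, Sycp2, had 11.6 and 24.5 CPM in null libraries, against 2.56 and 2.82 CPM in wild type libraries (log2 fold change 2.72, SE 0.5, adjusted p = 0.0202). Syce1, of the central element, had 8.95 and 8.92 CPM in null libraries, against 0.639 and 0 CPM in wild type libraries (ratio of null over wild type 29.8, 95% counting interval 7.95 to 251, adjusted p = 0.00934), and Meioc, which keeps germ cells in meiotic prophase, had 9.67 and 10.1 CPM in null libraries, against 1.6 and 0.846 CPM in wild type libraries (log2 fold change 3.0, SE 0.51, adjusted p = 0.0137). 4930447C04Rik had 52.2 and 91.2 CPM in null libraries, against 5.11 and 10.7 CPM in wild type libraries (log2 fold change 3.16, SE 0.37, adjusted p = 0.00123). Beside 21.1% of all tested genes, the null libraries lay above both wild type libraries in all of these. For called genes this is partly built in. Prdm9, which marks sites of meiotic recombination, went the other way, with 0.967 and 0.863 CPM in null libraries, against 8.62 and 5.92 CPM in wild type libraries (log2 fold change −2.94, SE 0.57, adjusted p = 0.027). It is in no list and was picked out after its values were seen. Sycp3 (3.97), Sycp2 (2.66), Meioc (3.5) and Prdm9 (−2.64) were not called without wild type replicate 1. Sycp3, Sycp2, Meioc and Prdm9 (log2 fold changes −3.19 to 3.79), and Syce1 were not called without wild type replicate 2. Prdm9 (−3.03) was not called without null replicate 1. Sycp2 (2.09) and Prdm9 (−2.86) were not called without null replicate 2. Prdm9 was not called with only the day 8 libraries in the fit. Prdm9 was not called with DESeq2's Wald test.

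Of 17 tested genes of the list of testis-expressed genes and X-linked antigens, 5 rose and 0 fell, with a median of 2.55, or 2.35 with bounds. The share of all tested genes that rose was 0.506%. Tex11, an X-linked gene needed for crossing over in males, had 8.95 and 20.1 CPM in null libraries, against 0 and 0 CPM in wild type libraries (at least 31.3-fold higher in null, adjusted p = 0.00698), and Tex13b had 9.43 and 11.8 CPM in null libraries, against 0 and 0 CPM in wild type libraries (at least 23.4-fold higher in null, adjusted p = 0.00396). Both were at 0 in wild type. Mageb16, of the MAGE antigen family, had 16 and 34.2 CPM in null libraries, against 1.28 and 3.1 CPM in wild type libraries (log2 fold change 3.46, SE 0.52, adjusted p = 0.00727), Stk31, a tudor domain kinase-like protein of testis, had 4.84 and 6.04 CPM in null libraries, against 0 and 0.282 CPM in wild type libraries (ratio of null over wild type 36, 95% counting interval 6.11 to 1460, adjusted p = 0.0184), while the lymphocyte-regulated family member Xlr4a had 5.08 and 7.48 CPM in null libraries, against 0 and 0.564 CPM in wild type libraries (ratio of null over wild type 20.6, 95% counting interval 5.4 to 175, adjusted p = 0.0246). Xlr4a has near-identical copies that may share its reads, so its value is uncertain. Trap1a, a tumor antigen gene of the X chromosome in no list, named after its values were seen, had 24.2 and 15.2 CPM in null libraries, against 2.88 and 4.79 CPM in wild type libraries (log2 fold change 2.35, SE 0.47, adjusted p = 0.0327). Dydc1, a DPY30 domain gene named in the same way, had 4.35 and 7.48 CPM in null libraries, against 0 and 0 CPM in wild type libraries (at least 12.9-fold higher in null, adjusted p = 0.0477). Mageb16 and Trap1a (log2 fold changes 2.04 to 3.0), and Tex11, Tex13b, Stk31, Xlr4a and Dydc1 were not called without wild type replicate 1. Trap1a (2.77), and Tex11, Stk31, Xlr4a and Dydc1 were not called without wild type replicate 2. Trap1a (1.96) and Dydc1 were not called without null replicate 1. Xlr4a and Dydc1 were not called without null replicate 2. Stk31 and Xlr4a were not called with only the day 8 libraries in the fit. Xlr4a was not called with DESeq2's Wald test. DESeq2's Wald test gave no adjusted p for Dydc1. Over the 3 germline lists 12 members rose, 10 of them matched a RefSeq promoter, and 4 of those, Ddx4, Mael, Stk31 and Sycp3, hold the E-box shown above.

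Genes of other early lineages rose in smaller numbers. Of 28 pluripotency genes 2 rose, beside 0.506% of all tested genes, with a list median of 0.80. Dppa5a, an RNA-binding protein of ES cells, had 4.11 and 7.77 CPM in null libraries, against 0.319 and 0.846 CPM in wild type libraries (log2 fold change 3.22, SE 0.55, adjusted p = 0.0144), while the nuclear receptor Esrrb had 5.8 and 3.74 CPM in null libraries, against 0.958 and 0 CPM in wild type libraries (ratio of null over wild type 10.8, 95% counting interval 3.43 to 54.9, adjusted p = 0.0473). Nanog, on chromosome 6, did not pass, with 40.4 and 88.9 CPM in null libraries, against 16.3 and 27.3 CPM in wild type libraries (1.55, adjusted p = 0.229); both null libraries lay above wild type. In the trophoblast and placenta list Krt7, a simple epithelial keratin, was the 1 of 16 that rose (17.2 and 33.1 CPM in null libraries, against 3.83 and 7.61 CPM in wild type libraries; log2 fold change 2.1, SE 0.39, adjusted p = 0.0208). Rhox6, an X-linked homeobox gene of placenta, was separate by genotype with 34.8 and 46.6 CPM in null libraries, against 0.319 and 0.846 CPM in wild type libraries, yet did not pass (6.01, adjusted p = 0.0929). Rhox9, added after its values were seen, had 30.5 and 44 CPM in null, against 0.639 and 0.564 CPM in wild type. The 5 trophoblast markers, these 3 genes with Elf5 and Tpbpa, summed to 86.1 and 124 CPM in null, against 4.79 and 9.86 CPM in wild type. Elf5 and Tpbpa held few counts. In both null libraries 8 of the 16 list members were higher and 2 lower, beside 21.1% and 20.8% of all tested genes. Elf3, an epithelial ETS factor on chromosome 1, was the 1 of 27 epithelial genes that rose (3.63 and 10.1 CPM in null libraries, against 0.319 and 0 CPM in wild type libraries; ratio of null over wild type 43.9, 95% counting interval 7.52 to 1770, adjusted p = 0.0293), and Phlda2, an imprinted brake on placental growth, had 35.5 and 63.3 CPM in null libraries, against 3.19 and 12.1 CPM in wild type libraries (log2 fold change 2.66, SE 0.49, adjusted p = 0.0202). Epithelial markers as a whole were high in null replicate 2 alone, as given above. Dppa5a, Krt7 and Phlda2 (log2 fold changes 1.71 to 2.75), and Esrrb and Elf3 were not called without wild type replicate 1. Dppa5a (4.06), Esrrb, Krt7 (2.69) and Elf3 were not called without wild type replicate 2. Esrrb was not called without null replicate 1. Krt7 (1.56), Elf3 and Phlda2 (2.19) were not called without null replicate 2. Dppa5a, Esrrb, Krt7, Elf3 and Phlda2 were not called with only the day 8 libraries in the fit, nor was Esrrb with chromosomes 1, 6, 8, 14 and Y left out. Esrrb was not called with DESeq2's Wald test.

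**Figure D3:**
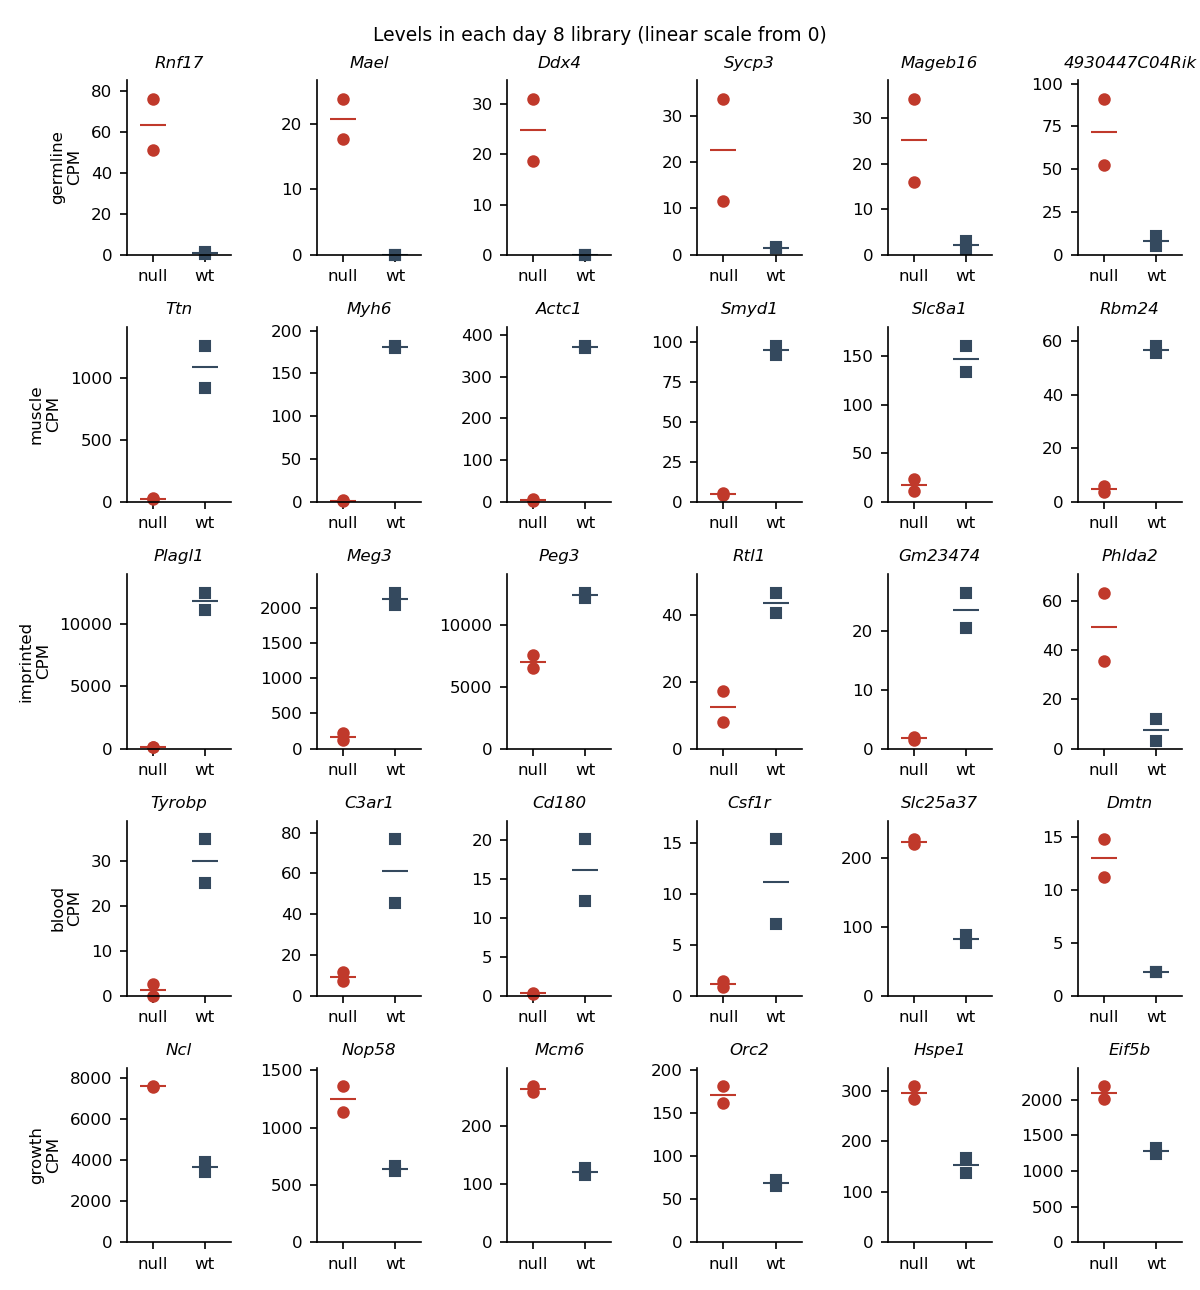
Level of 30 genes in each day 8 library in CPM, on linear axes from 0. Each panel has the 2 null libraries on the left (red circles) and the 2 wild type libraries on the right (dark squares), with a bar at each mean; rows hold germline, muscle, imprinted, blood and growth genes. In every panel the null and wild type libraries do not overlap, which is partly built in, as the genes shown were chosen among called ones. Over all tested genes 21.1% were higher and 20.8% lower in both null libraries.

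Among the 74 gene lists described here the thick filament of muscle, the myosin motor, had the largest share of lower members. Of 9 tested thick filament genes 8 fell, with a list median of −4.93, or −4.69 with bounds, and the background of lower calls is 0.759%. The ventricular light chain Myl2 had 0.242 and 0.863 CPM in null libraries, against 20.8 and 13.5 CPM in wild type libraries (log2 fold change −4.93, SE 0.86, adjusted p = 0.0163), while the myosin-binding protein Mybpc3 had 0.484 and 0.576 CPM in null libraries, against 12.8 and 14.7 CPM in wild type libraries (log2 fold change −4.62, SE 0.65, adjusted p = 0.00508). The atrial light chain Myl7 had 0 and 0 CPM in null libraries, against 18.2 and 13.8 CPM in wild type libraries (at least 40.3-fold lower in null, adjusted p = 0.00269), and Myl3 had 0 and 0 CPM in null libraries, against 10.5 and 9.86 CPM in wild type libraries (at least 25.8-fold lower in null, adjusted p = 0.00739). Neither null library held a count of these light chains. Myh6 and Myh7, the heavy chains, both on chromosome 14, had 0.725 and 1.73 CPM in null against 182 and 179 CPM in wild type (−7.21) and 1.45 and 0.576 CPM in null against 140.2 and 101 CPM in wild type (−6.8). Myl4 (−3.47) and the M-band protein Myom1 (−1.9) fell by less. Myh6 (−7.2), Myl2 (−4.59), Myl3 and Myom1 (−1.79) were not called without wild type replicate 1. Myl2 (−5.21) and Myom1 (−2.0) were not called without wild type replicate 2. Myh6 (−6.69) and Myl2 (−4.27) were not called without null replicate 1. Myom1 (−1.35) was not called without null replicate 2. Myom1 was not called with only the day 8 libraries in the fit, nor with chromosomes 1, 6, 8, 14 and Y left out.

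Other parts of the sarcomere were less uniform. Their counts stand beside 0.759% of all tested genes that fell. Of 11 thin filament genes 3 fell, the cardiac actin Actc1 with 7.5 and 0.863 CPM in null libraries, against 369.9 and 375 CPM in wild type libraries (log2 fold change −6.4, SE 0.72, adjusted p = 0.00743), nebulette, Nebl, with 7.98 and 12.7 CPM in null libraries, against 177 and 133 CPM in wild type libraries (log2 fold change −3.91, SE 0.43, adjusted p = 0.000921), and troponin T, Tnnt2, with 72 and 20.4 CPM in null libraries, against 520.3 and 464 CPM in wild type libraries (log2 fold change −3.4, SE 0.52, adjusted p = 0.0245). Actc1 and Tnnt2 were several times higher in null replicate 1 than in null replicate 2, and both null libraries lay far below wild type. Of 14 titin and Z-disc genes 2 fell, Ttn itself (19.8 and 31.4 CPM in null libraries, against 1259 and 918 CPM in wild type libraries; log2 fold change −5.42, SE 0.28, adjusted p = 1.22e-06), while the Z-disc protein Ldb3 (0.242 and 0.288 CPM in null libraries, against 7.67 and 3.94 CPM in wild type libraries; ratio of wild type over null 21.6, 95% counting interval 5.59 to 185, adjusted p = 0.0312), although 13 of the 14 had a negative fold change. Actc1 (−6.41), Tnnt2 (−3.32) and Ldb3 were not called without wild type replicate 1. Tnnt2 (−3.48) and Ldb3 were not called without wild type replicate 2. Ldb3 was not called without null replicate 1. Ldb3 was not called without null replicate 2. Ldb3 was not called with only the day 8 libraries in the fit. Ldb3 was not called with DESeq2's Wald test, nor were Actc1 and Tnnt2 with no filter on low counts.

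In the sarcoplasmic reticulum list, the calcium store of muscle, 4 of 10 fell and all 10 were negative, with a median of −1.80. The background of lower calls is 0.759%. The sodium-calcium exchanger Slc8a1 had 23.4 and 10.7 CPM in null libraries, against 161 and 133 CPM in wild type libraries (log2 fold change −3.09, SE 0.32, adjusted p = 0.000539), while the release channel Ryr2 had 19.6 and 13.5 CPM in null libraries, against 96.1 and 80.6 CPM in wild type libraries (log2 fold change −2.41, SE 0.28, adjusted p = 0.00123). The luminal calcium binder Hrc (−3.1) and junctophilin Jph2 (−2.26), which ties the store to the cell membrane, fell too. Rbm24, an RNA-binding protein that directs muscle splicing, had 5.8 and 3.74 CPM in null libraries, against 58.5 and 55.5 CPM in wild type libraries (log2 fold change −3.56, SE 0.39, adjusted p = 0.000803) and was the 1 of 12 muscle RNA-binding genes that fell. In the muscle energy list 3 of 10 fell, the enolase Eno3 (6.53 and 6.91 CPM in null libraries, against 24.6 and 18.6 CPM in wild type libraries; log2 fold change −1.68, SE 0.36, adjusted p = 0.0455), the mitochondrial coactivator Ppargc1a (1.45 and 1.15 CPM in null libraries, against 9.26 and 10.7 CPM in wild type libraries; log2 fold change −2.9, SE 0.53, adjusted p = 0.0202) and Ldb3, which this list shares. Hrc (−2.89), Jph2 (−2.24), Eno3 (−1.46) and Ppargc1a (−3.0) were not called without wild type replicate 1. Jph2 (−2.28), Eno3 (−1.87) and Ppargc1a (−2.79) were not called without wild type replicate 2. Eno3 (−1.65) and Ppargc1a (−3.09) were not called without null replicate 1. Eno3 (−1.72) and Ppargc1a (−2.76) were not called without null replicate 2. Eno3 was not called with only the day 8 libraries in the fit, nor with chromosomes 1, 6, 8, 14 and Y left out. Eno3 was not called with DESeq2's Wald test, nor with scaling on the other autosomes.

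Muscle genes in no list, grouped after their values were seen, went the same way. Hdac9, a class IIa deacetylase of muscle, had 0.967 and 0 CPM in null libraries, against 14.4 and 14.9 CPM in wild type libraries (log2 fold change −4.73, SE 0.66, adjusted p = 0.00498), while the glycogen primer Gyg had 80 and 71.1 CPM in null libraries, against 223 and 179.5 CPM in wild type libraries (log2 fold change −1.41, SE 0.2, adjusted p = 0.00647). The others are the myosin chaperone Unc45b (−2.58), the Z-disc adaptor Sorbs2 (−2.46), the actin oxidase Mical2 (−1.68) and Sh3bgr (−2.91). Pdzrn3, a ubiquitin ligase of developing muscle and vessels, had 61.9 and 51.2 CPM in null libraries, against 199 and 156 CPM in wild type libraries (log2 fold change −1.65, SE 0.19, adjusted p = 0.00129). Gyg, Unc45b, Sorbs2, Mical2 and Sh3bgr (log2 fold changes −2.91 to −1.25) were not called without wild type replicate 1. Unc45b (−2.72) and Sh3bgr (−2.89) were not called without wild type replicate 2. Unc45b (−2.77) and Sh3bgr (−2.54) were not called without null replicate 1. Unc45b (−2.43) was not called without null replicate 2. Mical2 was not called with only the day 8 libraries in the fit, nor was Unc45b with chromosomes 1, 6, 8, 14 and Y left out. Unc45b was not called with DESeq2's Wald test.

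Few cardiac regulators were called, though many lay lower in both null libraries. Of 25 cardiac transcription factors and cofactors 2 fell, beside 0.759% of all tested genes, and the median was −0.54. In both null libraries 17 of the 25 were lower and 1 was higher, beside 20.8% and 21.1% of all tested genes. The methyltransferase Smyd1, a muscle factor on chromosome 6, had 5.32 and 4.32 CPM in null libraries, against 91.7 and 97.5 CPM in wild type libraries (log2 fold change −4.28, SE 0.32, adjusted p = 3.02e-05), and Zfpm2, a partner of GATA4, had 22 and 15.5 CPM in null libraries, against 53.3 and 38 CPM in wild type libraries (log2 fold change −1.27, SE 0.28, adjusted p = 0.0468). Isl1, of second heart field progenitors, had 3.63 and 5.76 CPM in null libraries, against 10.9 and 9.86 CPM in wild type libraries (log2 fold change −1.15, SE 0.58, adjusted p = 0.42); the libraries did not overlap, as 20.8% of all tested genes did in that direction, and the gene did not pass. Of 21 cardiac channel and connexin genes 0 passed, with the calcium channel subunit Cacnb2 nearest (4.84 and 4.61 CPM in null libraries, against 17.6 and 18 CPM in wild type libraries; log2 fold change −1.91, SE 0.43, adjusted p = 0.0558), and 16 were negative. Both null libraries lay lower in 13 of the 21 channel and connexin genes and higher in 4. Smooth muscle, epicardial, skeletal myogenic and natriuretic or secreted factor lists had no called member, with medians of −0.66, −0.90, −0.86 and −0.18. Nearest to the threshold in the smooth muscle list was Cald1, an actin-binding protein on chromosome 6, on the higher side (0.56, adjusted p = 0.127), and in the skeletal list the troponin Tnni2 (−2.85, adjusted p = 0.0685). Zfpm2 was not called without wild type replicate 1 (−1.01), wild type replicate 2 (−1.5) or without null replicate 2 (−1.05). Zfpm2 was not called with only the day 8 libraries in the fit, nor with chromosomes 1, 6, 8, 14 and Y left out. Zfpm2 was not called with scaling on the other autosomes.

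Macrophage genes fell in null cultures. Of 22 macrophage genes 5 fell, 0 rose and 17 lay lower in both null libraries, with a median of −2.79, or −2.30 with bounds. Over all tested genes 0.759% fell and 20.8% were lower in both null libraries. Of 16 primitive erythroid genes 0 passed. Tyrobp, the signalling adaptor of myeloid cells, had 2.66 and 0 CPM in null libraries, against 34.8 and 25.1 CPM in wild type libraries (log2 fold change −4.36, SE 0.63, adjusted p = 0.00809), while the receptor of the growth factor CSF1, Csf1r, had 1.45 and 0.863 CPM in null libraries, against 15.3 and 7.04 CPM in wild type libraries (log2 fold change −3.2, SE 0.52, adjusted p = 0.0115). Cx3cr1, a chemokine receptor, had 0.725 and 0 CPM in null libraries, against 23 and 8.17 CPM in wild type libraries (ratio of wild type over null 38.4, 95% counting interval 12.8 to 189, adjusted p = 0.00727), Cybb, of the phagocyte oxidase, had 0 and 0 CPM in null libraries, against 5.43 and 2.82 CPM in wild type libraries (at least 10.3-fold lower in null, adjusted p = 0.0152), and Ptprc, the pan-leukocyte phosphatase CD45, had 2.18 and 0 CPM in null libraries, against 12.8 and 9.3 CPM in wild type libraries (log2 fold change −3.21, SE 0.68, adjusted p = 0.0436). The 6 defining macrophage markers summed to 9.91 and 9.5 CPM in null, against 73.8 and 42.0 CPM in wild type, with C1qa at 0 in both genotypes. Wild type replicate 1 was the higher in each of the 5 called genes. Tyrobp, Csf1r and Ptprc (log2 fold changes −4.11 to −2.55), and Cx3cr1 and Cybb were not called without wild type replicate 1. Ptprc (−3.42) was not called without wild type replicate 2. Ptprc (−2.32) was not called without null replicate 2. Csf1r and Ptprc were not called with only the day 8 libraries in the fit. Cybb did not pass the filter on low counts with only the day 8 libraries.

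A further 14 falls among genes of blood and immune cells were found outside the list and grouped after their values were seen. With the 5 above the group holds 19 genes with a median fitted log2 fold change of −3.59, and the smallest fall was −1.36. The lowest fitted value, −6.97, is that of Cybb and is no bound, as null was at 0. Its fall is given above as at least 10.3-fold. C3ar1, the receptor of complement C3a, had 11.4 and 6.91 CPM in null libraries, against 76.7 and 45.6 CPM in wild type libraries (log2 fold change −2.72, SE 0.3, adjusted p = 0.000803), and Cd180, a Toll-like receptor relative, had 0.242 and 0.288 CPM in null libraries, against 20.1 and 12.1 CPM in wild type libraries (ratio of wild type over null 60.4, 95% counting interval 16.3 to 505, adjusted p = 0.000817). Btk, a kinase of B and myeloid cells, had 0.484 and 0 CPM in null libraries, against 12.5 and 7.89 CPM in wild type libraries (ratio of wild type over null 38.2, 95% counting interval 10.2 to 322, adjusted p = 0.00881). The oxidase subunit Ncf1 (ratio 20.9, 6.78 to 104), the lipid kinase Pik3cg (ratio 50.1, 8.54 to 2020), the leukocyte adaptors Fyb (−2.79) and Apbb1ip (−2.53), the inhibitory receptor Sirpa (−2.88), the chemokine Ccl9 (−3.86), the coagulation factor F13a1 (−3.59) and the actin regulators Nckap1l (−2.14), Lcp1 (−1.36), Myo1f (ratio 18.2, 4.65 to 157) and Arhgap30 (−3.28) fell as well. Fyb, Apbb1ip, Sirpa, Ccl9, F13a1, Nckap1l, Lcp1 and Arhgap30 (log2 fold changes −3.59 to −0.98), and Btk, Ncf1, Pik3cg and Myo1f were not called without wild type replicate 1. F13a1 (−4.02) and Myo1f were not called without wild type replicate 2. Sirpa (−2.37), Ccl9 (−3.2), Nckap1l (−1.88) and Lcp1 (−1.46) were not called without null replicate 1. F13a1 (−2.74), Nckap1l (−2.44), Lcp1 (−1.28) and Myo1f were not called without null replicate 2. Ncf1, F13a1, Nckap1l, Lcp1 and Myo1f were not called with only the day 8 libraries in the fit, nor were F13a1 and Nckap1l with chromosomes 1, 6, 8, 14 and Y left out. Nckap1l was not called with scaling on the other autosomes.

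No gene of the primitive erythroid list passed, and the null replicates differed from each other in red cell genes. Hbb-bh1, an embryonic globin, had 156 and 128 CPM in null libraries, against 58.1 and 61.7 CPM in wild type libraries (log2 fold change 1.25, SE 0.29, adjusted p = 0.0714), the nearest of its list to the threshold. Hba-x, the embryonic alpha globin, named after its values were seen, had 2300 and 604 CPM in null libraries, against 595 and 685 CPM in wild type libraries, high in null replicate 1 alone (1.18, adjusted p = 0.612). Outside the list, Slc25a37 and Dmtn rose, both on chromosome 14 and set beside it after their values were seen. Slc25a37, the mitochondrial iron carrier mitoferrin, had 227 and 220.2 CPM in null libraries, against 87.5 and 75.5 CPM in wild type libraries (log2 fold change 1.45, SE 0.23, adjusted p = 0.00934), and Dmtn, an actin bundler of the red cell skeleton, had 14.8 and 11.2 CPM in null libraries, against 2.24 and 2.25 CPM in wild type libraries (log2 fold change 2.52, SE 0.46, adjusted p = 0.0202). Off chromosomes 1, 6, 8 and 14 the median of the erythroid list was 0.27, and over all 16 members it was 0.85. Slc25a37 (1.57) and Dmtn (2.51) were not called without wild type replicate 1. Slc25a37 (1.35) and Dmtn (2.52) were not called without wild type replicate 2. Dmtn (2.3) was not called without null replicate 1. Endothelial genes had a median of 0.22 and 0 of 19 called, with the angiopoietin receptor Tek nearest (116 and 104 CPM in null libraries, against 204 and 193 CPM in wild type libraries; log2 fold change −0.85, SE 0.2, adjusted p = 0.0621).

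Imprinted genes, which are read from 1 parental copy, held large changes of abundant transcripts. Of 37 tested 5 fell and 1, Phlda2, rose, beside 0.759% and 0.506% of all tested genes, with a median of −0.11. Plagl1, a zinc finger regulator of an imprinted growth network, had 161 and 148 CPM in null libraries, against 12540 and 11150 CPM in wild type libraries (log2 fold change −6.26, SE 0.3, adjusted p = 1.2e-06). Peg3, a zinc finger gene among the most abundant transcripts of these cultures, had 7523 and 6492 CPM in null libraries, against 12600 and 12150 CPM in wild type libraries (log2 fold change −0.82, SE 0.14, adjusted p = 0.0174), and its neighbor Usp29, which is transcribed away from a shared start region, had 75.9 and 84.3 CPM in null libraries, against 204 and 163 CPM in wild type libraries (log2 fold change −1.19, SE 0.25, adjusted p = 0.0379). The changes of Peg3 and Usp29 were small beside that of Plagl1. For neither gene did the genotypes overlap, which is partly built in for called genes. Peg3 (−0.79) and Usp29 (−1.02) were not called without wild type replicate 1. Peg3 (−0.85) and Usp29 (−1.35) were not called without wild type replicate 2. Usp29 (−1.13) was not called without null replicate 1. Usp29 (−1.27) was not called without null replicate 2. Peg3 was not called with only the day 8 libraries in the fit, nor was Usp29 with chromosomes 1, 6, 8, 14 and Y left out.

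In the imprinted Dlk1-Meg3 domain of chromosome 12, Meg3, Rtl1 and 4 small nucleolar RNA (snoRNA) genes fell. Meg3, a noncoding RNA made from the maternal copy, had 215 and 119.7 CPM in null libraries, against 2219 and 2042 CPM in wild type libraries (log2 fold change −3.67, SE 0.25, adjusted p = 1.93e-05). Between Meg3 and Mir379, in the gene order of the GENCODE vM21 annotation, lie 22 snoRNA genes of the table, of which 11 could be tested. All 11 had negative fold changes, with a median log2 of −3.36, and 4 were called. Gm23474 had 1.45 and 2.02 CPM in null libraries, against 26.5 and 20.6 CPM in wild type libraries (log2 fold change −3.75, SE 0.41, adjusted p = 0.000803), Gm24895 had 1.69 and 1.44 CPM in null libraries, against 24.3 and 24.8 CPM in wild type libraries (log2 fold change −3.94, SE 0.44, adjusted p = 0.000817), DQ267100 had 0.967 and 0.576 CPM in null libraries, against 7.99 and 8.74 CPM in wild type libraries (log2 fold change −3.36, SE 0.6, adjusted p = 0.0181) and Gm26922 had 0.484 and 0.863 CPM in null libraries, against 10.2 and 5.64 CPM in wild type libraries (log2 fold change −3.51, SE 0.65, adjusted p = 0.0208). These snoRNAs are known to be cut from the long maternal transcript that continues from Meg3. Rtl1, a retrotransposon-derived gene of the paternal copy, had 17.2 and 8.06 CPM in null libraries, against 40.6 and 46.8 CPM in wild type libraries (log2 fold change −1.78, SE 0.38, adjusted p = 0.0455). An antisense transcript covers Rtl1, the strand setting of the counting is not given, and reads of the pair cannot be told apart. Dlk1, the neighbor before Meg3, had 1128 and 246 CPM in null libraries, against 453 and 356 CPM in wild type libraries, with null replicate 1 far above the rest, and did not pass (0.77, adjusted p = 0.708). DQ267100 (−3.42), Gm26922 (−3.03) and Rtl1 (−1.88) were not called without wild type replicate 1. DQ267100 (−3.3) and Rtl1 (−1.67) were not called without wild type replicate 2. Gm26922 (−3.15) was not called without null replicate 1. DQ267100 (−3.07) and Rtl1 (−1.35) were not called without null replicate 2. Gm26922 and Rtl1 were not called with only the day 8 libraries in the fit, nor was Rtl1 with chromosomes 1, 6, 8, 14 and Y left out.

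Of 22 ribosome biogenesis genes 3 rose and 0 fell, beside 0.506% and 0.759% of all tested genes. Of the 22, 20 had a positive fold change. In both null libraries 14 were higher, beside 21.1% of all tested genes that were so. The list median was 0.40, and 0.33 over its members off chromosomes 1, 6, 8 and 14. Ncl, nucleolin, had 7573 and 7583 CPM in null libraries, against 3418 and 3897 CPM in wild type libraries (log2 fold change 1.05, SE 0.14, adjusted p = 0.00396), Nop58, of the box C/D snoRNA particle, had 1360 and 1138 CPM in null libraries, against 618 and 662 CPM in wild type libraries (log2 fold change 0.96, SE 0.16, adjusted p = 0.012), and Gnl3, nucleostemin, had 294 and 358 CPM in null libraries, against 169 and 167 CPM in wild type libraries (log2 fold change 0.96, SE 0.17, adjusted p = 0.0152). The first and second lie on chromosome 1 and Gnl3 on chromosome 14; snoRNA genes lie inside Ncl and Gnl3, and their reads may be shared. The nucleolar proteins Nifk (1.03), Wdr75 (0.93) and Bms1 (0.86), the initiation factor Eif5b (0.71) and the ribosomal protein Rpl31 (0.84) also rose. They were grouped with these after their values were seen, and all 8 genes lie on chromosomes 1, 6 and 14. Of 35 ribosomal protein genes 0 passed and 32 were positive, with a median of 0.33, or 0.31 off those chromosomes, and with Rpl32 nearest (0.69, adjusted p = 0.0907). Ribosomal protein genes have many pseudogenes, so their counts are uncertain. Ncl, Nop58, Gnl3, Nifk, Wdr75, Bms1, Eif5b and Rpl31 (log2 fold changes 0.66 to 0.97) were not called without wild type replicate 1. Nop58, Gnl3, Nifk, Wdr75, Bms1, Eif5b and Rpl31 (log2 fold changes 0.76 to 1.1) were not called without wild type replicate 2. Nifk (0.9), Bms1 (0.66) and Rpl31 (0.73) were not called without null replicate 1. Gnl3, Nifk, Wdr75, Bms1, Eif5b and Rpl31 were not called with only the day 8 libraries in the fit.

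Single genes of replication, mitosis and protein folding rose, most of them on chromosome 1. Among all tested genes 0.506% rose. Mcm6, a subunit of the replicative helicase, had 257 and 267 CPM in null libraries, against 115 and 127 CPM in wild type libraries (log2 fold change 1.11, SE 0.16, adjusted p = 0.00674) and was the 1 of 32 replication genes called in the list, whose median was 0.11 and 0.02 off chromosomes 1, 6, 8 and 14. Orc2, of the origin recognition complex, had 161 and 181 CPM in null libraries, against 65.8 and 72.4 CPM in wild type libraries (log2 fold change 1.3, SE 0.2, adjusted p = 0.009), the mitotic kinetochore protein Cenpf had 319.6 and 397 CPM in null libraries, against 196 and 209 CPM in wild type libraries (log2 fold change 0.82, SE 0.17, adjusted p = 0.0433), while the DNA end-binding protein Xrcc5, or Ku80, which was added after its values were seen, had 106 and 134 CPM in null libraries, against 64.8 and 69.6 CPM in wild type libraries (log2 fold change 0.83, SE 0.18, adjusted p = 0.0468). All 4 lie on chromosome 1. Hspe1 and Hspd1, the mitochondrial chaperonins that share a promoter region on chromosome 1, had 285 and 309 CPM in null against 138 and 167 CPM in wild type (0.96) and 522 and 738 CPM in null against 336 and 371 CPM in wild type (0.83). Their processed copies Hspe1-ps2 (1.01) on chromosome 12 and Hspd1-ps3 (0.76) on chromosome 11 rose beside them, and reads of the copies and the genes cannot be told apart. Pmaip1, the p53 target Noxa on chromosome 18, had 18.1 and 21.6 CPM in null libraries, against 6.71 and 4.79 CPM in wild type libraries (log2 fold change 1.79, SE 0.36, adjusted p = 0.0321) as the 1 of 24 genes called among CDK inhibitors and p53 targets. Mcm6, Orc2, Cenpf, Xrcc5, Hspe1, Hspd1, Hspe1-ps2, Hspd1-ps3 and Pmaip1 (log2 fold changes 0.77 to 2.04) were not called without wild type replicate 1. Mcm6, Orc2, Cenpf, Xrcc5, Hspe1, Hspd1, Hspd1-ps3 and Pmaip1 (log2 fold changes 0.75 to 1.56) were not called without wild type replicate 2. Cenpf, Xrcc5, Hspd1, Hspd1-ps3 and Pmaip1 (log2 fold changes 0.52 to 1.66) were not called without null replicate 2. Cenpf, Xrcc5, Hspe1, Hspd1, Hspe1-ps2, Hspd1-ps3 and Pmaip1 were not called with only the day 8 libraries in the fit, nor was Hspd1-ps3 with chromosomes 1, 6, 8, 14 and Y left out. Hspd1-ps3 was not called with DESeq2 size factors.

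The smallest changes that passed were in abundant transcripts. Tpr, of the nuclear pore basket, had 3954 and 4261 CPM in null libraries, against 2267 and 2473 CPM in wild type libraries (log2 fold change 0.79, SE 0.14, adjusted p = 0.0181). Also under 2-fold and higher were the chromatin protein Nucks1 (0.8), the translational repressor Gigyf2 (0.77), the HSP90 cochaperone Fkbp4 (0.81), the elongin subunit Eloc (0.95) and the protease Capn7 (0.76), all on chromosomes 1, 6 and 14. On the lower side were the splicing regulator Hnrnph3 (−0.79), the myosin phosphatase subunit Ppp1r12a (−0.72), the microtubule end protein Mapre2 (−0.86), the vascular receptor Heg1 (−0.87), the RNA decay factor Zfp36 (−0.89), the kinase anchor protein Akap13 (−0.92) and the adhesion phosphatase Ptprk (−0.95). Hnrnph3 had 607 and 661 CPM in null libraries, against 1155 and 1033 CPM in wild type libraries, a gap larger than the spread within either genotype. Tpr, Nucks1, Gigyf2, Fkbp4, Eloc, Capn7, Hnrnph3, Ppp1r12a, Mapre2, Heg1, Zfp36, Akap13 and Ptprk (log2 fold changes −0.97 to 0.89) were not called without wild type replicate 1. Tpr, Nucks1, Gigyf2, Fkbp4, Eloc, Capn7, Hnrnph3, Ppp1r12a, Mapre2, Heg1, Zfp36, Akap13 and Ptprk (log2 fold changes −1.05 to 1.02) were not called without wild type replicate 2. Eloc, Capn7, Ppp1r12a, Heg1 and Zfp36 (log2 fold changes −0.9 to 0.73) were not called without null replicate 1. Gigyf2, Fkbp4, Mapre2, Heg1 and Zfp36 (log2 fold changes −0.88 to 0.76) were not called without null replicate 2. Tpr, Nucks1, Gigyf2, Fkbp4, Eloc, Capn7, Hnrnph3, Ppp1r12a, Mapre2, Heg1, Zfp36, Akap13 and Ptprk were not called with only the day 8 libraries in the fit, nor were Ppp1r12a, Mapre2, Heg1 and Zfp36 with chromosomes 1, 6, 8, 14 and Y left out. Ppp1r12a, Mapre2, Heg1 and Zfp36 were not called with scaling on the other autosomes.

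Other genes with low p fell into no list. Dbi, a carrier of acyl-CoA on chromosome 1, had 338 and 292 CPM in null libraries, against 118 and 131 CPM in wild type libraries (log2 fold change 1.34, SE 0.18, adjusted p = 0.00396), and Nefh, the heavy neurofilament, had 10.2 and 13.5 CPM in null libraries, against 2.24 and 0.846 CPM in wild type libraries (log2 fold change 2.94, SE 0.41, adjusted p = 0.00508). The potassium channels Kcnk1 (1.95) and Kcnj13 (1.25), the galactosyltransferase B4galt3 (1.45) and the mitochondrial reductase Marc2 (1.15) were higher, as were Gm4879 (1.85) and Gm12020 (1.13), which are annotated as processed pseudogenes, may share reads with their source genes and are therefore uncertain. On the lower side Hpgd, the enzyme that inactivates prostaglandins, had 0.725 and 0 CPM in null libraries, against 16 and 11 CPM in wild type libraries (ratio of wild type over null 33.8, 95% counting interval 11.2 to 167, adjusted p = 0.00727), and Hlf, a leucine zipper factor of blood stem cells and liver, had 7.98 and 3.17 CPM in null libraries, against 56.2 and 25.4 CPM in wild type libraries (log2 fold change −2.83, SE 0.43, adjusted p = 0.00877). Dbi, Kcnk1, Kcnj13, B4galt3, Marc2, Gm4879, Gm12020 and Hlf (log2 fold changes −2.15 to 1.89), and Hpgd were not called without wild type replicate 1. Nefh, Kcnk1, B4galt3, Marc2, Gm4879 and Gm12020 (log2 fold changes 1.11 to 2.38) were not called without wild type replicate 2. Nefh, Kcnj13, B4galt3 and Marc2 were not called with only the day 8 libraries in the fit.

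Few adhesion and guidance molecules were called. Of 37 tested guidance molecules 4 fell and 0 rose, beside 0.759% and 0.506% of all tested genes, with a median of −0.24. In both null libraries 18 of the 37 were lower and 2 higher, beside 20.8% and 21.1% of all tested genes. The ephrin receptors Epha3 and Epha7 had 5.08 and 2.88 CPM in null against 36.1 and 18.6 CPM in wild type (log2 fold change −2.75, SE 0.43, adjusted p = 0.00934) and 121 and 78 CPM in null against 212 and 213 CPM in wild type (log2 fold change −1.09, SE 0.22, adjusted p = 0.0319). The semaphorins Sema3a and Sema6d, cues for axons and vessels, had 8.95 and 7.77 CPM in null against 31 and 26.8 CPM in wild type (log2 fold change −1.78, SE 0.28, adjusted p = 0.00988) and 78.8 and 72.5 CPM in null against 176 and 124 CPM in wild type (log2 fold change −0.99, SE 0.21, adjusted p = 0.0455). Slitrk4, a neuronal membrane protein in no list, had 4.84 and 3.45 CPM in null libraries, against 23 and 24.8 CPM in wild type libraries (log2 fold change −2.51, SE 0.38, adjusted p = 0.00727). All 5 were lower in both null libraries, beside 20.8% of all tested genes, which is partly built in for called genes. Integrins and cadherins had no called member, with Itgb3, an integrin of platelets and osteoclasts (−1.42, adjusted p = 0.0723), and the protocadherin Pcdh1 (1.23, adjusted p = 0.0691) nearest. Epha3, Epha7, Sema3a, Sema6d and Slitrk4 (log2 fold changes −2.56 to −0.71) were not called without wild type replicate 1. Epha7 (−1.09), Sema6d (−1.22) and Slitrk4 (−2.46) were not called without wild type replicate 2. Sema6d (−1.06) was not called without null replicate 1. Epha7 (−0.81) and Sema6d (−0.93) were not called without null replicate 2. Epha7 and Sema6d were not called with only the day 8 libraries in the fit, nor was Sema6d with chromosomes 1, 6, 8, 14 and Y left out. Sema6d was not called with scaling on the other autosomes.

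The extracellular matrix was mostly unresolved. Of 30 collagen genes 2 fell and 1 rose, beside 0.759% and 0.506% of all tested genes. Col2a1, the cartilage collagen, had 16.7 and 3.74 CPM in null libraries, against 104 and 63.1 CPM in wild type libraries (log2 fold change −3.0, SE 0.5, adjusted p = 0.0163), Col14a1, a fibril-associated collagen, had 9.91 and 14.1 CPM in null libraries, against 34.5 and 32.1 CPM in wild type libraries (log2 fold change −1.48, SE 0.29, adjusted p = 0.0281), and Col5a2, on chromosome 1, had 164 and 117 CPM in null libraries, against 61.3 and 53.8 CPM in wild type libraries (log2 fold change 1.29, SE 0.25, adjusted p = 0.029). Among the lower genes were some enzymes that modify collagen and heparan sulfate, picked from the calls with no count of such enzymes tested. They were the lysyl hydroxylase Plod2 (529.5 and 602 CPM in null libraries, against 978 and 942 CPM in wild type libraries, log2 fold change −0.76, SE 0.16, adjusted p = 0.0428), the prolyl hydroxylase P3h2 (−1.29), the heparan polymerase Ext1 (−0.82) and the sulfotransferase Hs3st3b1 (−1.17). P3h2, Hs3st3b1 and the stromal proteins Cd248 (−1.35) and Serpinf1 (−1.03) were named after their values were seen. No gene of the laminin, matricellular or matrix protease lists was called, the nearest being Lama4 (1.0, adjusted p = 0.0674), Ltbp1 (−0.72, adjusted p = 0.0705) and Mmp16 (−1.23, adjusted p = 0.0559). Col2a1, Col14a1, Col5a2, Plod2, P3h2, Ext1, Hs3st3b1, Cd248 and Serpinf1 (log2 fold changes −2.6 to 1.38) were not called without wild type replicate 1. Col14a1, Col5a2, Plod2, P3h2, Ext1, Hs3st3b1, Cd248 and Serpinf1 (log2 fold changes −1.53 to 1.19) were not called without wild type replicate 2. Col14a1, Col5a2, Plod2, P3h2, Ext1 and Hs3st3b1 (log2 fold changes −1.3 to 1.02) were not called without null replicate 1. Hs3st3b1 (−1.07) and Serpinf1 (−0.87) were not called without null replicate 2. Col14a1, Plod2, P3h2, Ext1, Hs3st3b1 and Serpinf1 were not called with only the day 8 libraries in the fit, nor were Plod2, P3h2, Ext1, Hs3st3b1 and Serpinf1 with chromosomes 1, 6, 8, 14 and Y left out. Plod2, Ext1, Hs3st3b1 and Serpinf1 were not called with scaling on the other autosomes.

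Signalling lists held isolated calls, beside 0.759% of all tested genes that fell and 0.506% that rose. Erbb4, the neuregulin receptor of heart muscle, was the 1 of 23 growth factor genes called, with 0 and 0 CPM in null libraries, against 5.11 and 7.33 CPM in wild type libraries (at least 16-fold lower in null, adjusted p = 0.0235). Axl, a receptor kinase counted among Hippo targets, had 23.9 and 15.5 CPM in null libraries, against 71.5 and 63.4 CPM in wild type libraries (log2 fold change −1.76, SE 0.26, adjusted p = 0.00647), and Egr1, an immediate early factor, had 31.4 and 27.3 CPM in null libraries, against 65.2 and 103 CPM in wild type libraries (log2 fold change −1.52, SE 0.28, adjusted p = 0.0208). The Hedgehog coreceptor Cdon had 73.8 and 51.5 CPM in null libraries, against 131 and 116 CPM in wild type libraries (log2 fold change −0.98, SE 0.21, adjusted p = 0.0458). Dhrs3, which turns retinaldehyde back to retinol, had 51.5 and 39.7 CPM in null libraries, against 129 and 112 CPM in wild type libraries (log2 fold change −1.4, SE 0.3, adjusted p = 0.0473), and Igfbp2, an IGF binding protein on chromosome 1, had 165 and 84.3 CPM in null libraries, against 41.5 and 31.9 CPM in wild type libraries (log2 fold change 1.77, SE 0.32, adjusted p = 0.0198). Each was separate by genotype, which is partly built in for called genes. No gene of the Wnt, BMP and TGF-beta, FGF or Notch lists was called out of 37, 42, 22 and 16 tested, with Wnt6 (2.77, adjusted p = 0.176), Bmp1 (1.44, adjusted p = 0.0805), Spred2 (−0.65, adjusted p = 0.215) and Jag1 (−0.97, adjusted p = 0.21) nearest. Axl, Egr1, Cdon, Dhrs3 and Igfbp2 (log2 fold changes −1.81 to 1.97), and Erbb4 were not called without wild type replicate 1. Egr1, Cdon, Dhrs3 and Igfbp2 (log2 fold changes −1.5 to 1.58), and Erbb4 were not called without wild type replicate 2. Erbb4, Dhrs3 (−1.61) and Igfbp2 (1.19) were not called without null replicate 1. Erbb4, Egr1 (−1.42), Cdon (−0.74) and Dhrs3 (−1.22) were not called without null replicate 2. Cdon was not called with only the day 8 libraries in the fit, nor were Cdon and Dhrs3 with chromosomes 1, 6, 8, 14 and Y left out. Cdon and Dhrs3 were not called with scaling on the other autosomes. DESeq2's Wald test gave no adjusted p for Erbb4.

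Endoderm genes had no common direction. Among all tested genes 0.759% fell. Of 19 visceral endoderm genes 2 fell, the fetal serum protein Afp with 0.242 and 0 CPM in null libraries, against 11.8 and 7.33 CPM in wild type libraries (ratio of wild type over null 71.8, 95% counting interval 12.4 to 2880, adjusted p = 0.00877), while the apolipoprotein Apoa1 with 0 and 0.863 CPM in null libraries, against 11.5 and 14.7 CPM in wild type libraries (ratio of wild type over null 33.4, 95% counting interval 11.1 to 165, adjusted p = 0.0204), while the list median was −0.01. Apob, of the same tissue and named after its values were seen, had 18.1 and 99.9 CPM in null libraries, against 93.9 and 102 CPM in wild type libraries, low in null replicate 1 alone (−0.74, adjusted p = 0.815). Parietal and definitive endoderm lists had no call, with medians of 0.24 and −0.14, nor had the Hox, early neural, neural crest, limb mesenchyme or nascent mesoderm lists, with medians of 0.13, −0.03, 0.15, 0.59 and −0.21. The Hox gene nearest to the threshold was Hoxb9 (2.36, adjusted p = 0.247). Afp and Apoa1 were not called without wild type replicate 1. Apoa1 was not called without wild type replicate 2. Apoa1 was not called without null replicate 1.

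The interferon, glycolysis, cholesterol, respiratory chain and proteasome lists held no called gene. Of 24 interferon response genes 22 were negative, 10 were lower in both null libraries and 0 passed, with a median of −0.46 or −0.37 with bounds; the antiviral Ifit1 had 0 and 0 CPM in null libraries, against 4.79 and 2.54 CPM in wild type libraries (adjusted p = 0.0903). Of 27 glycolysis and hypoxia genes 20 were negative and 14 were lower in both null libraries, with a median of −0.28 and the aldolase Aldoa nearest (345 and 369 CPM in null libraries, against 549.7 and 560.3 CPM in wild type libraries; −0.64, adjusted p = 0.0776). Of 25 cholesterol and lipid synthesis genes 19 were negative and 13 were lower in both null libraries, with a median of −0.24 and the desaturase Scd2 nearest (450.2 and 445 CPM in null libraries, against 706 and 686 CPM in wild type libraries; −0.64, adjusted p = 0.0621). Over all tested genes 20.8% were lower in both null libraries. Respiratory chain and proteasome genes had medians of 0.21 and 0.17 over 32 and 26 genes, or 0.13 and 0.14 off chromosomes 1, 6, 8 and 14, and with Ndufs1 (0.73, adjusted p = 0.155) and Psmc6 (0.88, adjusted p = 0.0701) nearest. These shares have no test, and nothing is called particular to the lists.

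**Figure D4:**
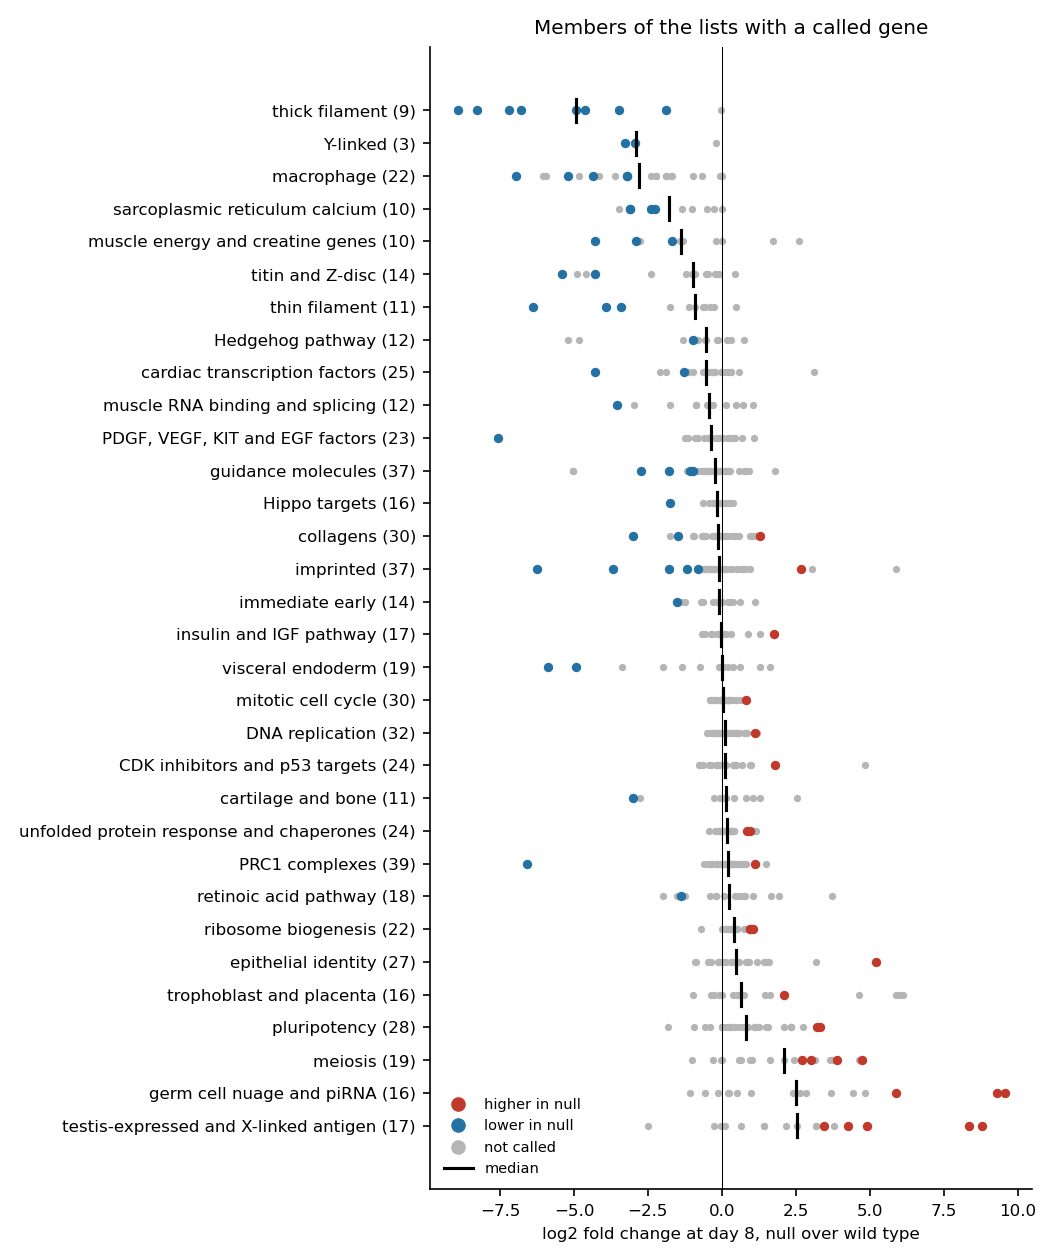
Log2 fold change of null over wild type at day 8 for every tested member of the 32 lists that hold a called gene, with the number of tested members in brackets. Red points were higher, blue points lower and grey points did not pass; black bars are list medians, which run from −4.93 for thick filament genes to 2.55 for testis-expressed genes.

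In all, 32 of 74 lists held a called gene, 17 of them with lower members only, 12 with higher members only and 3 with both. The lists cover 1380 tested genes, of which 28 were higher and 48 lower, so 52 of the higher and 72 of the lower genes lay outside every list.

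On the Y chromosome, Ddx3y, an RNA helicase, had 5.32 and 3.74 CPM in null libraries, against 49.2 and 39.2 CPM in wild type libraries (log2 fold change −3.26, SE 0.32, adjusted p = 0.000496), and Uty, a histone demethylase family member, had 4.11 and 4.89 CPM in null libraries, against 38 and 30.4 CPM in wild type libraries (log2 fold change −2.92, SE 0.39, adjusted p = 0.00381). Eif2s3y, a translation factor of the same chromosome, had 150.2 and 171 CPM in null libraries, against 184 and 186 CPM in wild type libraries and did not pass (−0.21, adjusted p = 0.654). It was named after its values were seen. Ddx3y and Uty were still called when any 1 library was left out.

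Levels of day 0, with 1 library per genotype and no test, set these changes in time. Of the 80 higher genes 71 (88.8%) were already above wild type in the null ES cell library, beside 54.8% of all tested genes. Off chromosomes 1, 6, 8 and 14 it was 25 of 31 (80.6%), with no share of all tested genes off them to set beside it. The null ES cell library held 6890792 counts and the wild type one 3419681, and the part of this depth in these shares was not tested. Of the 120 lower genes 50 (41.7%) were below wild type there, beside 42.1% of all tested genes. Of the 120 lower genes 90 (75%) had a wild type level at day 8 at least 4 times that of wild type ES cells, beside 20% of all tested genes, and 53 (44.2%) did so in null cells. Of the higher genes 31 (38.8%) had a wild type level in ES cells at least 4 times that of day 8, beside 11% of all tested genes, and 13 (16.2%) in null cells. The higher and lower genes were chosen by their day 8 values, so the gaps between wild type and null shares are partly built in. The same holds for the gaps to all tested genes, and the null shares have no share of all tested genes beside them.

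At day 14 the same contrast gave 41 higher genes (0.259%) and 56 lower genes (0.354%), 97 in all (0.613%). Of the genes called at day 8, 76 of 80 and 118 of 120 had the same sign at day 14, and 15 and 30 passed there. The 45 shared calls, all of 1 sign at both days, are 22.5% of the day 8 calls and 46.4% of the day 14 calls. The median log2 fold change of the day 8 higher genes was 1.33 at day 8 and 0.76 at day 14, and that of the lower genes −2.73 at day 8 and −1.09 at day 14; these genes were chosen by their day 8 values, so a smaller value at day 14 is partly built in. Plagl1 was at −6.26 at day 8 and −6.56 at day 14, and Meg3 at −3.67 and −3.85 on those days. Ttn was at −5.42 and −2.69, Smyd1 at −4.28 and −1.23, and Cd180 at −5.77 and −0.18. The genotype by day interaction called 0 genes (0.0%) with edgeR and 8 with DESeq2's Wald test. At an unadjusted p under 0.05 it held 961 genes (6.07%), among them 66 of the 120 lower and 22 of the 80 higher genes, and its lowest adjusted p was 0.0669, that of Ttn.

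**Figure D5:**
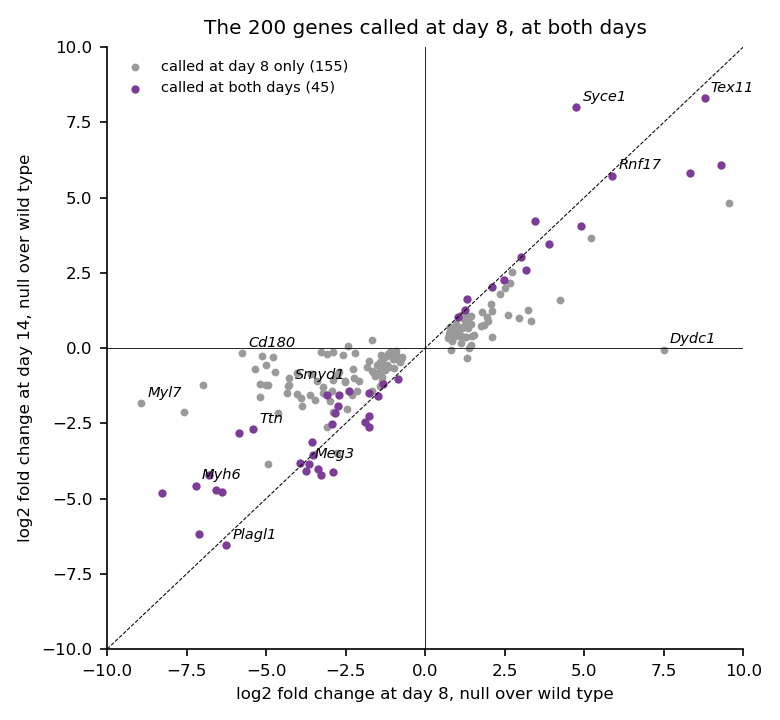
Log2 fold change of null over wild type at day 8 (horizontal axis) and day 14 (vertical axis) for the 200 genes called at day 8; the dashed line marks equal values. The 45 genes called at both days (purple) all have the same sign, and Plagl1 and Meg3 lie near the line while Smyd1, Cd180 and Myl7 lie nearer 0 at day 14.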

How the data were processed

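RNA of 10 mouse cultures was turned into sequencing libraries (NuGEN kits, per the labels), and levels were deposited as raw read counts per Ensembl gene, 1 table for all samples. Per the submitters' processing notes the tools were TopHat, HTSeq and DESeq and the build mm9; the strand setting and annotation release are not given in sources used here. The deposited counts were used as they stand. Symbols and chromosomes came from GENCODE vM21, which matched 30946 of 36191 IDs, and promoters from RefSeq GRCm38.p6; coordinates of the authors' build were not used. Genes were kept by filterByExpr (minimum count 10) and tested with edgeR 4.0.16 in R 4.3.3 (TMM scaling, quasi-likelihood test, robust) over all 10 libraries in 6 groups with 4 residual degrees of freedom, with Benjamini-Hochberg adjustment and a threshold of 0.05; the script was tested on simulated data. DESeq2 1.42.0 was an alternative. Each SE was taken as the size of the log2 fold change divided by √F. A genotype with 0 counts was put at a floor of 3 counts over the group; genes with 1 to 3 counts have exact 95% counting intervals, which cover counting error only. Named genes are the called members of the lists (or the member with the lowest p), the called genes with the highest levels, the lowest p-values or the smallest changes, with Rybp, Yaf2, Plagl1, Ttn and Isl1; 15 of these 157 are not printed. Members, lists and this rule were chosen with earlier results of these data known, and Myl2, Myl3, Myom1, Nanog, Rhox6, Dlk1, Hspe1-ps2, DQ267100 and Gm26922 were added after their values were seen.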

Additional observations from a re-analysis of the deposited data

Results flagged for a closer look

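The genes below had null and wild type libraries that did not overlap at day 8 and at day 14, in opposite directions at the 2 days. Pdgfra, the receptor of platelet-derived growth factor in mesenchyme, had 150.4 and 183 CPM in null libraries, against 194 and 192 CPM in wild type libraries at day 8 (log2 fold change −0.21), and 242 and 209.8 CPM in null against 142 and 168 CPM in wild type at day 14 (0.54). Glb1, a lysosomal galactosidase, had 13.8 and 13.5 CPM in null libraries, against 7.35 and 8.17 CPM in wild type libraries at day 8 (0.81), and 14.6 and 15.6 CPM in null against 20.4 and 21.4 CPM in wild type at day 14 (−0.47). Ifit1, an antiviral gene of the interferon response, had 0 and 0 CPM in null libraries, against 4.79 and 2.54 CPM in wild type libraries at day 8, where null was at 0 and the fitted log2 fold change of −6.80 is no bound. At day 14 it had 23.9 and 5.68 CPM in null against 5.17 and 1.79 CPM in wild type (2.10). In edgeR's genotype by day interaction none of the 3 passed, with adjusted p of 0.718, 0.718 and 0.388. What lies behind these differences was not tested.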

How the results depend on the processing

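The 80 genes higher in null at day 8 became 376 with no filter on low counts, 126 with DESeq2's Wald test, 40 with only the day 8 libraries in the fit, and 25 without chromosomes 1, 6, 8, 14 and Y. The 120 genes lower in null at day 8 became 332 with no filter, 74 without those chromosomes and 80 with only the day 8 libraries, a fit that kept 30 of the 80 higher and 72 of the 120 lower calls. Leaving out each day 8 library in turn gave 5 to 188 higher and 23 to 136 lower genes. The count of genotype by day interaction calls, 0 in the report, was 65 with no filter, 8 with DESeq2 and 0 to 2 without 1 library. A fit with the replicate block over days 8 and 14 gave 41 higher and 97 lower genes, of which 41 and 91 were among those called without it; same-numbered libraries had deviations that correlated at 0.103 at day 8, over 2 pairs, which does not settle whether the numbers mark a shared culture or day. Other scalings gave 78 higher and 128 lower genes (DESeq2 size factors) and 101 higher and 102 lower (TMM from other chromosomes). Of the 157 genes named by rule none reversed in any of these fits. With 2 libraries a genotype and 3028153 to 4164476 counts each, small changes of rare transcripts were not detectable. The cause of these differences was not tested.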
